A study of Rattus norvegicus with 14 samples.

Results

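The mitotic genes described here are 10 genes that dividing cells switch on for mitosis, Cenpf, Mki67, Top2a, Cdk1, Ccnb1, Ccna2, Bub1, Aurkb, Birc5 and Plk1. Their probes were found by matching the accession of each array probe to a gene symbol, and the brightest probe stood for a gene that had several. In this way 8 of the 10 genes had a named probe, among 15154 named genes in all. Mki67 and Top2a had none and their expression was not analysed here.

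Expression was measured in lateral ventricle choroid plexus (CP), the epithelial tissue that secretes cerebrospinal fluid, of Wistar rats on 1-colour arrays. The study asked how removal of the gonads changes gene expression in CP. The groups were ovariectomized (OVX) females (3 arrays), sham-operated females (3 arrays), orchidectomized (OOX) males (4 arrays) and sham-operated males (4 arrays), which makes 14 arrays. All rats were 2 months old at surgery, and CP was taken 2 weeks later under ketamine and medetomidine. Each array carried a pool of RNA from 3 rats, and the labels call the pools biological replicates. The animal numbers that the study gives leave it unclear whether pools shared animals, so p-values measure only the spread between pools. RNA came from the whole tissue, so that fewer dividing cells and less of a transcript in each dividing cell cannot be told apart. All 10 of the CP epithelial markers looked at, among them transthyretin, were well above background on every array.

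A cell enters mitosis when the kinase Cdk1 is activated by its cyclin partners, and leaves it when the cyclins are destroyed. In between, Plk1 and Aurkb drive spindle assembly and chromosome attachment, and the kinetochore proteins Cenpf and Bub1 hold the chromosomes to the spindle and delay their separation until all are attached. Transcripts of these genes are low in resting cells and peak together in G2 and M phase, through promoters that often combine a cell cycle homology region (CHR), for which TTTGAA is the common form, with CCAAT boxes, which bind NF-Y. The adult CP epithelium is known as a tissue that divides rarely.

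In the rat genome (GRCr8, RefSeq annotation) Cenpf lies at chr13:103715344-103760931, Cdk1 at chr20:19265252-19280456, Ccnb1 at chr2:33646252-33655225 and Ccna2 at chr2:121355363-121361762. Bub1 lies at chr3:135473525-135504921, Aurkb at chr10:54243116-54249675, Birc5 at chr10:103567369-103580069 and Plk1 at chr1:186147658-186157637. RefSeq promoters of 300 bases around the annotated start were at hand for 8 of the 10 genes, all but Ccna2 and Aurkb. The letters TTTGAA were searched on both strands and were present in 6 of the 8 promoters, against 18.3% of 33469 rat promoters of the same length. CCAAT, on either strand, was present in 7 of the 8, against 37.5% of all promoters, and both were present in 6 of the 8, against 7.41%. The related letters TTTAAA were found in the promoters of Bub1, Ccnb1, Cenpf and Plk1 (4 of 8, against 13.6%) and TTCGAA in that of Top2a (1 of 8, against 1.69%). These are matches of letters and show no binding, and in Mki67 a TTTGAA and a CCAAT box shared a base. The promoters of Cenpf, Plk1, Birc5 and Cdk1, which hold both motifs, and of Ccnb1, which holds only CCAAT, are shown 5′ to 3′ to set the 2 motifs beside the genes' values; the Bub1 promoter held neither and is not shown. Capitals mark TTTGAA and CCAAT on either strand.
Cenpf promoter, chr13:103760837-103761136, minus strand: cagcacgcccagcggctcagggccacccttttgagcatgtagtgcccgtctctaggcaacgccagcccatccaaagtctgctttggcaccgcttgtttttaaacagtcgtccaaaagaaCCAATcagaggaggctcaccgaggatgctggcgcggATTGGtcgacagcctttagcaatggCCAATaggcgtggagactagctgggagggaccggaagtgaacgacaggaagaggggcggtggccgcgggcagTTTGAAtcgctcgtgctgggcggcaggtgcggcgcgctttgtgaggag
Plk1 promoter, chr1:186147408-186147707, plus strand: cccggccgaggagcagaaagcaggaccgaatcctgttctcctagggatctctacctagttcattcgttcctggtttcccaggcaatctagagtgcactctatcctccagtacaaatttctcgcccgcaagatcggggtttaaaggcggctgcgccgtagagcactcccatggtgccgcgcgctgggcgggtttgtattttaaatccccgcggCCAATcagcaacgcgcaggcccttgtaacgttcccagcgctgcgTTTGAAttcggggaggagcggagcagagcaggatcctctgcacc
Birc5 promoter, chr10:103571896-103572195, plus strand: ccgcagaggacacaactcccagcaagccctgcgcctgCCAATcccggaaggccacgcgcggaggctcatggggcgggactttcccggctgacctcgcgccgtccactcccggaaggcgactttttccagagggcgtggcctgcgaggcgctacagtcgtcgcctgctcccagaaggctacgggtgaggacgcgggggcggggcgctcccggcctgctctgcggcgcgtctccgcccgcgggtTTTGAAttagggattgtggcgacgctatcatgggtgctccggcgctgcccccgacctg
Cdk1 promoter, chr20:19265043-19265342, plus strand: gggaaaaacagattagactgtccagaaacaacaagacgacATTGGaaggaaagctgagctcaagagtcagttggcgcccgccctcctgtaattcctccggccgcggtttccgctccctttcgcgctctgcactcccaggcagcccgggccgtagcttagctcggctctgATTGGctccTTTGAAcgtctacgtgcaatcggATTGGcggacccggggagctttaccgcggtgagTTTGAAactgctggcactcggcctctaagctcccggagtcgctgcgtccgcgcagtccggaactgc
Ccnb1 promoter, chr2:33655176-33655475, minus strand: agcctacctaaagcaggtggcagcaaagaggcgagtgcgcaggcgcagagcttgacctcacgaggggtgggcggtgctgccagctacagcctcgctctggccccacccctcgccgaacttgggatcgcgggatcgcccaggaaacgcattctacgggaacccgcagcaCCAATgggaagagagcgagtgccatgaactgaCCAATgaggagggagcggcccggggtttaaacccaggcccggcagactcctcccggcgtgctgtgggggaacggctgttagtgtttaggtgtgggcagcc
With positions counted from the annotated start, the TTTGAA of Cenpf began at 3 and its CCAAT boxes at -131, -95 and -70. Plk1 had a CCAAT box at -38 and TTTGAA at 7, and Cdk1 had TTTGAA at -72 and -16. In Birc5 TTTGAA began at -8, while Ccnb1 had CCAAT boxes at -82 and -50 and held TTTAAA but no TTTGAA. Over all named genes with a promoter in the table, the 812 that held both TTTGAA and CCAAT had a median log2 difference of -0.05 between OVX and sham females, and the 11572 others -0.07. An unadjusted p under 0.05 with a higher mean in OVX was found for 110 of those with both (13.5%) and 1033 of the others (8.93%). Members that hold both are counted among the 812. In males, with a higher mean in OOX, it was found for 47 of those with both (5.79%) and 479 of the others (4.14%). A higher share among promoters with both motifs was thus not particular to females. Of 35 other mitosis genes with a promoter in the table, 19 held both.

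Signals are given as log2 over the median of the rat probes of the same array, so that 0 is the median probe and a step of 1 is a factor of 2. Levels of different genes come from different probes and are not set against each other. A signal counts as well above background when the scanner software marked it so, which held for 85.3% to 87.2% of spots in OVX females and 79.7% to 82.7% in sham females, and for 83.5% to 86.5% in OOX and 80.3% to 85.7% in sham males. Of the 8 genes, 7 were well above background on all 14 arrays. Cenpf was so on 9, namely on all 3 OVX, none of the 3 sham female, 3 of the 4 OOX and 3 of the 4 sham male arrays. There were 5 slides and 2 scan days. The first day took the 3 sham female arrays and OVX replicate 1, and the second day the remaining arrays. Slide 2 held OVX replicate 1 and sham female replicate 3, and slide 3 held OOX replicate 4 and sham male replicates 1 and 2; no other slide held both groups of a sex.

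In CP of OVX rats all 8 mitotic genes had a higher mean than in sham females, and 1 of them, Cenpf, passed the adjusted test. Among all named genes 1.81% passed as higher and 6.22% in either direction. The 8 differences ran from 0.23 to 1.67 on the log2 scale with a median of 0.53, against a median of -0.07 over all named genes. A fitted difference above 0 was found for 8 of 8 members and for 41.4% of named genes. An unadjusted p under 0.05 with a higher mean was found for 4 of 8 (Cenpf, Plk1, Birc5 and Cdk1) and for 9.25% of named genes. In Cenpf, Plk1 and Birc5 every OVX pool lay above every sham pool, 3 of 8 genes, as against 11.5% of named genes. The members were chosen with earlier results of these data known, and the paper lists Cenpf among the genes most raised by ovariectomy. These counts are therefore a description and no independent check. All p-values come from limma with n = 3 pools per group, and the Benjamini-Hochberg adjustment ran over named genes together with unnamed probes. All sham female arrays were scanned on the first day, and of the OVX arrays only replicate 1 was. Ovariectomy is therefore largely confounded with scan day and slide, and they can be told apart only through OVX replicate 1.

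**Figure D1:**
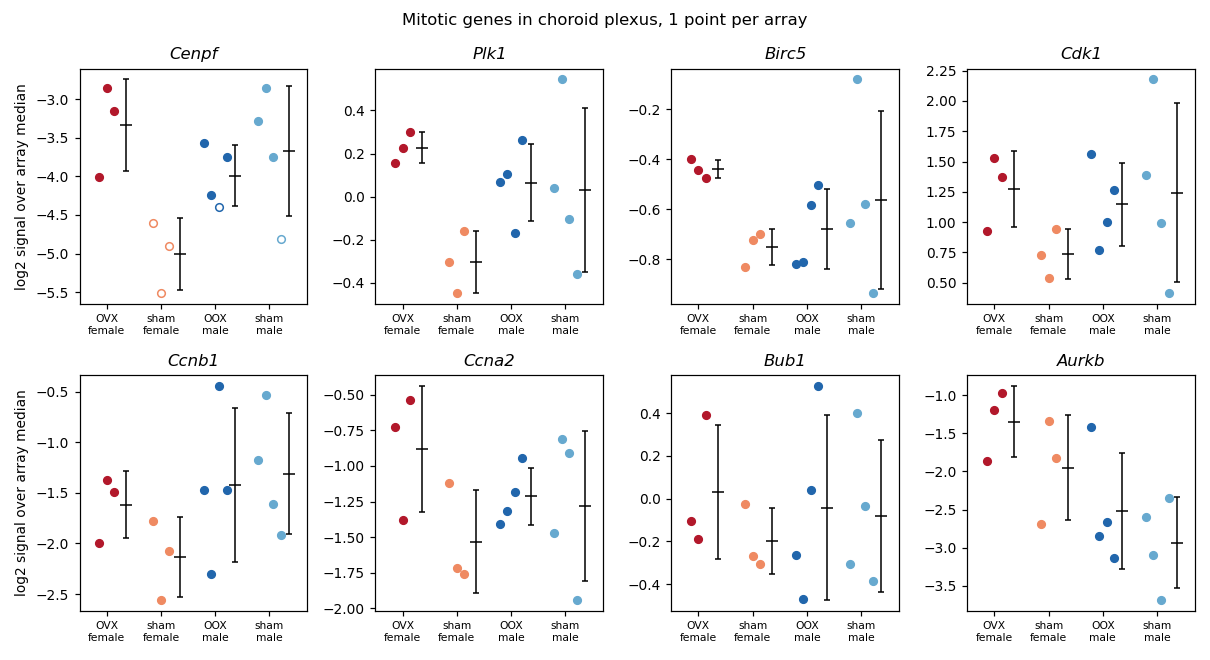
Signal of the 8 mitotic genes by array (14 in all), as log2 over the array median, each panel with a y axis of its own. Each point is a pool, open where it was not well above background, and the bar beside each group is the mean ± SD. In Cenpf, Plk1 and Birc5 the 3 OVX pools lie above the 3 sham female pools, and in all 8 genes the OOX and sham male pools overlap.

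Cenpf is a large coiled-coil protein that joins the kinetochore late in G2 and links it to microtubules and dynein. Its log2 signals were -4.00, -2.85 and -3.16 in the OVX pools, against -4.60, -5.51 and -4.90 in the sham female pools. All OVX pools were well above background and no sham pool was, with OVX replicate 1 the lowest of its group. The fitted difference was 1.67 (SE 0.36, 95% interval 0.79 to 2.54, adjusted p = 0.0475, limma). Since the sham signals were not well above background, they give no measured fold. With each sham pool set to the weakest signal its array still placed well above background (-4.28 to -3.75), Cenpf was 1.53-fold higher in OVX. The means were -3.34 in OVX and -5.00 measured in sham. On the OVX arrays that weakest signal was lower, -4.80 to -4.63. The weakest signal is no strict limit, so 1.53 is not a firm lower bound. On OOX replicate 1 it was -4.50, yet another Cenpf probe at -4.44 there was not well above background.

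Cenpf had a second probe, with signals of -4.07, -3.59 and -4.08 in the OVX pools and -5.88, -5.28 and -5.96 in the sham female pools. It too was well above background on 3 OVX and 0 sham female arrays. With each probe fitted on its own its difference was 1.79 (SE 0.24, adjusted p = 0.0416, limma), or 1.03-fold with the sham pools set in the same way. Over the 14 arrays the probes correlated with r = 0.862, as a description of 2 probes read from the same RNA. The call of the brighter probe was lost when any single female array was left out, with adjusted p from 0.0791 to 0.131 over the 6 fits and a difference of 1.41 to 2.00. Within slide 2 the difference was 0.89 (adjusted p = 0.708 from the fit blocked by slide). Blocking by scan day gave 0.9996 (adjusted p = 0.357), and both values rest on OVX replicate 1.

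**Figure D2:**
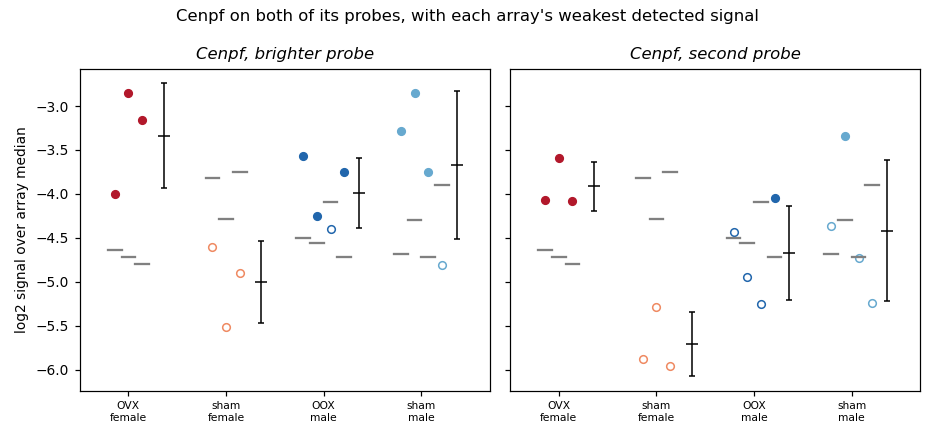
Signal of Cenpf by array on its brighter probe (left) and its second probe (right), as log2 over the array median, with the mean ± SD of each group; open points were not well above background. The grey line at each array is the weakest signal placed well above background there. The 3 sham female pools lie below their lines on both probes, and the 3 OVX pools lie above theirs.

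Plk1, a kinase that matures centrosomes and helps to activate Cdk1, had signals of 0.16, 0.22 and 0.30 in the OVX pools, against -0.30, -0.45 and -0.16 in the sham female pools. The pools of each group lay close together and did not overlap, and all were well above background. The difference was 0.53 (SE 0.13, 95% interval 0.22 to 0.84) and missed the threshold (adjusted p = 0.0629, limma). It passed after scaling to the 75th percentile (adjusted p = 0.0473) and in the deposited value table (adjusted p = 0.0486). Within slide 2 it was 0.32.

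The cyclin-dependent kinase and its cyclins followed. Cdk1, the kinase that starts mitosis, had signals of 0.93, 1.53 and 1.37 in the OVX pools, against 0.73, 0.54 and 0.94 in the sham female pools. OVX replicate 1 lay just below the highest sham pool and the other OVX pools lay above all 3. The difference was 0.54 (SE 0.20, adjusted p = 0.183, limma), and it was -0.02 within slide 2. Ccnb1, cyclin B1, which binds Cdk1 through G2 and M phase, had signals of -1.996, -1.37 and -1.49 in OVX and -1.77, -2.56 and -2.08 in sham pools. Here OVX replicate 1 lay among the sham pools. Its difference was 0.52 (SE 0.26, adjusted p = 0.308, limma) and 0.08 within slide 2. Ccna2, cyclin A2, which acts in S phase and G2, had signals of -0.73, -1.38 and -0.54 in OVX and -1.12, -1.72 and -1.76 in sham pools. Only OVX replicate 2 fell below the highest sham pool. The difference was 0.65 (SE 0.28, adjusted p = 0.245, limma) and 1.03 within slide 2.

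Ccna2 was read by a second, dimmer probe that was well above background on all 14 arrays. Its signals were -1.01, -1.31 and -0.998 in the OVX pools, against -1.67, -2.13 and -2.06 in the sham female pools, with no overlap. Fitted on its own it rose by 0.85 (SE 0.18, adjusted p = 0.0440, limma), so that the probes of Ccna2 fell on either side of the threshold. They correlated with r = 0.887 over the 14 arrays.

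Bub1 is a kinase of the spindle assembly checkpoint, which holds back chromosome separation. Its signals were -0.11, -0.19 and 0.39 in the OVX pools, against -0.02, -0.27 and -0.31 in the sham female pools. The groups overlapped, with only OVX replicate 3 clear of the sham pools, and the difference was 0.23 (SE 0.19, adjusted p = 0.533, limma). A second Bub1 probe was not well above background on any array and is given no fold.

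Aurkb and Birc5 belong to the chromosomal passenger complex, which corrects faulty attachments and guides cytokinesis. Birc5, survivin, which brings the complex to the centromere, had signals of -0.40, -0.44 and -0.47 in the OVX pools, against -0.83, -0.72 and -0.70 in the sham female pools. The groups were tight and apart. The difference was 0.31 (SE 0.11, 95% interval 0.04 to 0.58, adjusted p = 0.170, limma), and 0.30 within slide 2. Aurkb, the kinase of the complex, had signals of -1.87, -1.197 and -0.98 in OVX and -2.69, -1.33 and -1.83 in sham pools. Its pools were widely spread and overlapped, with a difference of 0.60 (SE 0.40, 95% interval -0.35 to 1.56, adjusted p = 0.426, limma) and -0.04 within slide 2.

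In OOX males none of the 8 genes passed the adjusted test, and none had an unadjusted p under 0.05; in all named genes 0.0858% passed the adjusted test and 6.88% had an unadjusted p under 0.05. The differences ran from -0.32 to 0.42 with a median of -0.03, against 0.02 over all named genes, and 4 of 8 were above 0, against 53.0% of named genes. All 8 had overlapping groups, while 2.44% of named genes did not overlap with a higher level in OOX and 1.57% with a lower one. The adjusted p ran from 0.930 to 0.983 (limma, n = 4 pools per group).

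Cenpf had signals of -3.57, -4.25, -4.40 and -3.75 in the OOX pools, against -3.28, -2.86, -3.75 and -4.81 in the sham male pools. Sham replicates 2 and 4 were the highest and the lowest of the 8 male pools, so that the sham group enclosed the OOX group, though sham replicate 4 and OOX replicate 3 were not well above background. The difference was -0.32 (SE 0.40, 95% interval -1.24 to 0.61, limma), and -0.68 within slide 3. Cdk1 had signals of 1.56, 0.77, 0.9986 and 1.26 in OOX and 1.39, 2.18, 0.9957 and 0.41 in sham pools. Again sham replicate 2 was highest and sham replicate 4 lowest. Its difference was -0.09 (95% interval -0.91 to 0.72, limma). Ccnb1 had signals of -1.48, -2.30, -0.45 and -1.48 in OOX and -1.18, -0.53, -1.61 and -1.92 in sham pools, with OOX replicate 3 as high as sham replicate 2 and OOX replicate 2 below all others. The difference was -0.11 (95% interval -1.07 to 0.84, limma).

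Plk1 had signals of 0.07, 0.10, -0.17 and 0.26 in the OOX pools, against 0.04, 0.54, -0.10 and -0.36 in the sham male pools. The OOX pools lay within the range of the sham pools, and the difference was 0.03 (95% interval -0.43 to 0.50, limma). Birc5 ranged from -0.82 to -0.50 in OOX and from -0.93 to -0.08 in sham pools (difference -0.12, 95% interval -0.56 to 0.33). Ccna2 ranged from -1.41 to -0.95 in OOX and from -1.94 to -0.81 in sham pools (0.07, 95% interval -0.52 to 0.66), and Bub1 from -0.47 to 0.53 in OOX and from -0.39 to 0.40 in sham pools (0.04, 95% interval -0.55 to 0.63). None of these groups was clear of the other. Aurkb had signals of -1.42, -2.85, -2.67 and -3.14 in OOX and -2.60, -3.10, -3.69 and -2.34 in sham pools. OOX replicate 1 stood above all other male pools, and the difference was 0.42 (SE 0.42, 95% interval -0.54 to 1.37, limma). The upper bound of the male interval lay below the fitted female difference in Cenpf and Plk1, and above it in the other 6 genes. This leaves out the error of the female difference and is no test between the sexes.

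**Figure D3:**
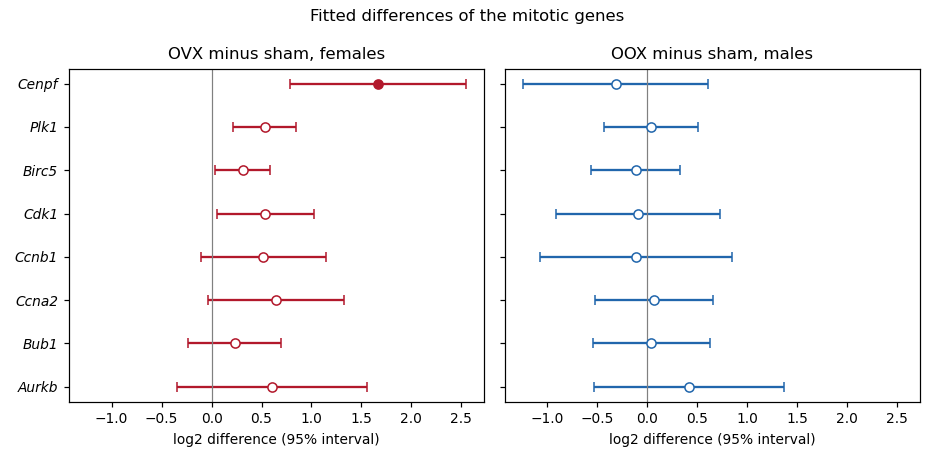
Fitted log2 differences of the 8 mitotic genes, OVX minus sham in females (left, n = 3 pools per group) and OOX minus sham in males (right, n = 4 pools per group), with 95% intervals; a filled point passed the adjusted test. The female differences are all above 0 and only that of Cenpf is filled, while the male intervals all include 0.

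The effects of the sexes were compared by a fit over all 14 arrays. The male effect minus the female effect was below 0 for 8 of 8 genes, with a median of -0.54, against 0.07 over all named genes, of which 58.1% lay above 0. None passed the adjusted test, which 0.251% of named genes did. Cenpf differed most, by -1.98 (SE 0.60, 95% interval -3.30 to -0.67, unadjusted p = 0.00635, adjusted p = 0.275, limma), and its value rests on sham female signals that were not well above background. Plk1 differed by -0.50 (95% interval -1.07 to 0.08, adjusted p = 0.505) and Birc5 by -0.43 (95% interval -0.96 to 0.10, adjusted p = 0.552). For the other 5 genes the differences ran from -0.63 to -0.19 (adjusted p from 0.669 to 0.945). A difference between the sexes in the response of these genes was therefore not shown by the test.

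The order of the 4 groups was much the same for most of the genes. OVX females had the highest mean in 7 of 8 genes, all but Ccnb1, where sham males did. Sham females had the lowest mean in 7 of 8, all but Aurkb, where sham males did. Cenpf averaged -3.34 ± 0.60 in OVX, -5.00 ± 0.47 in sham female, -3.99 ± 0.39 in OOX and -3.68 ± 0.84 in sham male pools (SD). Sham females were separated from the next group by mean, OOX males, with no overlap. They did overlap sham males, whose replicate 4 (-4.81) lay within the sham female range of -5.51 to -4.60. In the other 7 genes, neighbours in the order of the means overlapped throughout. Since Cenpf was not well above background on any sham female array, its place there is not a measured level. Sham females stood below sham males by 0.82 in Ccnb1 and 0.51 in Cdk1, and above them by 0.98 in Aurkb. All sham female arrays were scanned on the first day and all male arrays on the second, so sex and scan day cannot be told apart in these values and they were not tested.

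The genes also varied together between arrays of the same group. In sham males, replicate 2 was the highest of the 4 pools in 7 of 8 genes and replicate 4 the lowest in 7 of 8, with Aurkb the exception in both. Over all named genes replicate 2 was the highest in 37.5% and replicate 4 the lowest in 12.2%. The median deviation from the group mean was 0.50 in replicate 2 and -0.50 in replicate 4, against 0.10 and 0.06 over all named genes. Among 45 other mitosis genes, replicate 2 was the highest in 36 and replicate 4 the lowest in 20. These 45 were read in the same pools and listed with earlier results of these data known, so they are no independent check. Among 35 genes of DNA replication replicate 2 was the highest in 11 and replicate 4 the lowest in 13. Among 12 genes of the anaphase promoting complex, replicate 2 was the highest in 9 and replicate 4 the lowest in 1. Among 12 genes of the G1 and retinoblastoma pathway these counts were 6 and 1. The height of replicate 2 was therefore not particular to the mitotic genes. In OVX females, replicate 1 was the lowest in 5 of 8 members and in 28 of the 45 other mitosis genes, against 25.0% of named genes.

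**Figure D4:**
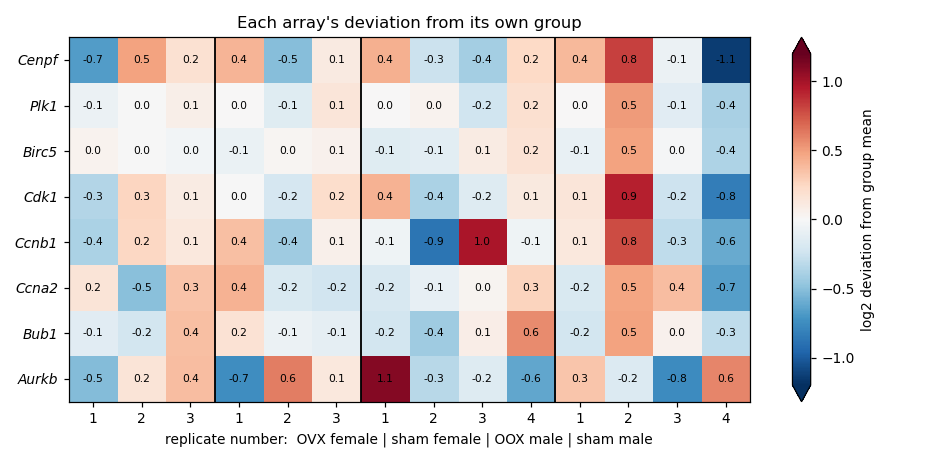
Deviation of each array from the mean of its own group, in log2 units, for the 8 mitotic genes (rows) and the 14 arrays (columns, with black lines between OVX female, sham female, OOX male and sham male). Red is above and blue below the group mean. In sham males, replicate 2 is above and replicate 4 below the mean in the upper 7 rows, while Aurkb runs the other way.

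Marker signals of other cells were summed in these pools. In sham male replicates 2 and 4, neuron markers summed to 3.73 and 3.88 times the array median, in a group that ranged from 3.73 to 64.0. Neuroblast and subventricular progenitor markers summed to 87.1 in replicate 2 and 78.1 in replicate 4, within a range of 72.5 to 88.9. Lymphocyte markers summed to 0.592 in replicate 2 and 0.852 in replicate 4. Replicate 2 lay on slide 3 and replicate 4 on slide 4, with 82.4% and 80.3% of spots well above background, and the part of these values in the pattern was not tested.

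As a description over the 14 arrays, which share libraries between all genes, the 21 pairs among the 7 genes other than Aurkb correlated with r from 0.380 to 0.866 (median 0.644). With the group means removed they correlated with r from 0.353 to 0.905 (median 0.559), highest for Cenpf and Cdk1. The 7 pairs that include Aurkb had r from -0.285 to -0.003. The Aurkb probe thus did not follow the other 7 genes, although its protein works with Birc5.

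The genes whose values over the 14 arrays were most like those of Cenpf, among the 12522 named genes that at least 1 whole group measured well above background, were Kif20a (r = 0.960), Usp13 (r = 0.929) and Parpbp (r = 0.908). This likeness rests partly on the 5 arrays where Cenpf was not well above background, and Parpbp was so on only 3 OVX, 0 sham female, 2 OOX and 3 sham male arrays. Kif20a is a kinesin of cytokinesis, Usp13 a deubiquitinase and Parpbp a PARP1-binding protein. Of the 8 members, Cdk1 ranked 9 and Plk1 ranked 10 in this order, and Aurkb 5929. Kif20a had signals of -0.97, -0.33 and -0.51 in the OVX pools, against -1.23, -1.57 and -1.14 in the sham female pools, all well above background. The groups did not overlap, OVX replicate 1 was the lowest of its group, and Kif20a differed by 0.71 (SE 0.21, adjusted p = 0.106, limma). Kif20a was chosen for its likeness to Cenpf over these same arrays, so a shared pattern follows from the choice and is no separate support. The genes most like the mean of the 7 members that every array measured were Cct6b (r = 0.882), a chaperonin subunit, Nusap1 (r = 0.882), a spindle protein, and Ndc80 (r = 0.880), a kinetochore protein that binds microtubules. Nusap1 differed by 0.66 (SE 0.21, adjusted p = 0.131, limma) and Ndc80 by 0.70 (SE 0.20, adjusted p = 0.0904, limma) between OVX and sham females. As these genes were chosen for likeness to the members' mean on the same arrays, their differences are no separate support either.

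The other genes of mitosis were taken from a list of 60, of which 45 were measured. In OVX females 2 of 45 rose and none fell, against 1.81% of named genes that rose. A difference above 0 was found for 38 of 45, against 41.4% of named genes, with a median of 0.35. An unadjusted p under 0.05 with a higher mean was found for 19, against 9.25%, and with a lower mean for 0. Wee1, the kinase that holds Cdk1 inactive and so delays mitosis, had signals of 4.19, 4.04 and 4.14 in the OVX pools, against 3.24, 2.95 and 3.13 in the sham female pools. The groups were far apart, and Wee1 rose by 1.02 (SE 0.13, adjusted p = 0.0401, limma), or 1.06 within slide 2. Espl1, separase, which cleaves cohesin so that sister chromatids part, had signals of -1.84, -1.59 and -1.61 in OVX and -2.59, -2.42 and -2.28 in sham pools. It rose by 0.75 (SE 0.14, adjusted p = 0.0401, limma), with no overlap. Next in p, and short of the threshold, were Ckap2, a spindle protein (0.67, adjusted p = 0.0566), and Racgap1, which acts in cytokinesis (0.67, adjusted p = 0.0672). Leaving out single female arrays left 0 or 1 of the 45 called, the 1 being Wee1 without sham replicate 2, with a median of 0.26 to 0.42. Espl1 was lost in each of these fits. With slide as a block none was called and the median was 0.11, and with scan day as a block none and 0.24. None was called with the replicate block or by the methods' t-test either, and after normexp 1 was called and the median was 0.15.

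In OOX males none of the 45 was called, against 0.0858% of named genes, and the median was -0.08. An unadjusted p under 0.05 was found for 1 of the 45, against 6.88% of named genes. It was Incenp, the scaffold of the chromosomal passenger complex (difference -0.35, adjusted p = 0.648, limma). Wee1 had a male difference of -0.17, and its effect differed between the sexes by -1.19 (SE 0.18, adjusted p = 0.0183, limma), the only 1 of the 45 for which the difference passed. That call was lost without OVX replicate 1, OVX replicate 3 or sham female replicate 2 (adjusted p from 0.0526 to 0.0672) and on blocking by scan day (adjusted p = 0.0811), slide (0.728) or replicate number (0.0769). In the paper's lists the circadian clock gene Per2 was raised after ovariectomy and lowered after orchidectomy. Whether the Wee1 values go with those of clock genes was not tested.

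Of 40 genes of DNA replication and S phase, 35 were measured. In OVX females 2 rose, against 1.81% of named genes, and none fell, with a median of 0.18. An unadjusted p under 0.05 was found for 5 higher, against 9.25%, and 2 lower. None was called after quantile normalization or normexp, with the filter on dim probes, by the methods' t-test or with slide, scan day or replicate number as a block, and the median was 0.057 with slide as a block, 0.027 with scan day as a block and 0.036 after normexp. Mcm10, a replication initiation factor, was well above background on 3 OVX and 0 sham female arrays (fitted difference 1.12, adjusted p = 0.0464, limma). It was 1.05-fold higher with the sham pools set to the weakest well-above-background signal of their arrays, as for Cenpf. Cdc6, which loads the replicative helicase, passed (adjusted p = 0.0418, limma) on 2 OVX and 0 sham arrays well above background, with no fold; it was named after its values were seen. Both calls were lost when any single female array was left out (adjusted p from 0.0791 to 0.130). Gmnn, geminin, which blocks renewed licensing of origins, had a difference of -0.87 (adjusted p = 0.0670) and Tyms, thymidylate synthase, of -0.53 (adjusted p = 0.0786). In OOX males none was called, against 0.0858% of named genes, and the median was 0.08.

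Of 6 measured meiosis genes, Sycp3, a protein of the synaptonemal complex, passed in females with a lower signal in OVX (adjusted p = 0.0445, limma), but it was not well above background on any array and is given no fold. Of 12 measured G1 and retinoblastoma pathway genes none was called in either sex, with medians of 0.06 in females and 0.04 in males. Of all named genes 6.22% were called in females and 0.0858% in males, in either direction. In a list of 12 genes, none called lies near these shares, here and in the lists that follow. Ccnd1, cyclin D1, had a difference of 0.56 in females (adjusted p = 0.0770) and -0.40 in males (adjusted p = 0.606), and the difference between the sexes did not pass (-0.96, adjusted p = 0.0758, limma). Of 12 cell cycle inhibitors none was called in either sex, with medians of -0.19 in females and 0.07 in males. Among them were Cdkn2b, an inhibitor of Cdk4 and Cdk6, at 0.48 (adjusted p = 0.0891), and Gadd45a, at -0.57 (adjusted p = 0.0934), in females. Of 12 measured genes of the anaphase promoting complex, which destroys the mitotic cyclins, none was called, and the medians were -0.03 in both sexes. Multiciliated cells use some cell cycle regulators without dividing; of 10 such genes 3 were measured and none was called.

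**Figure D5:**
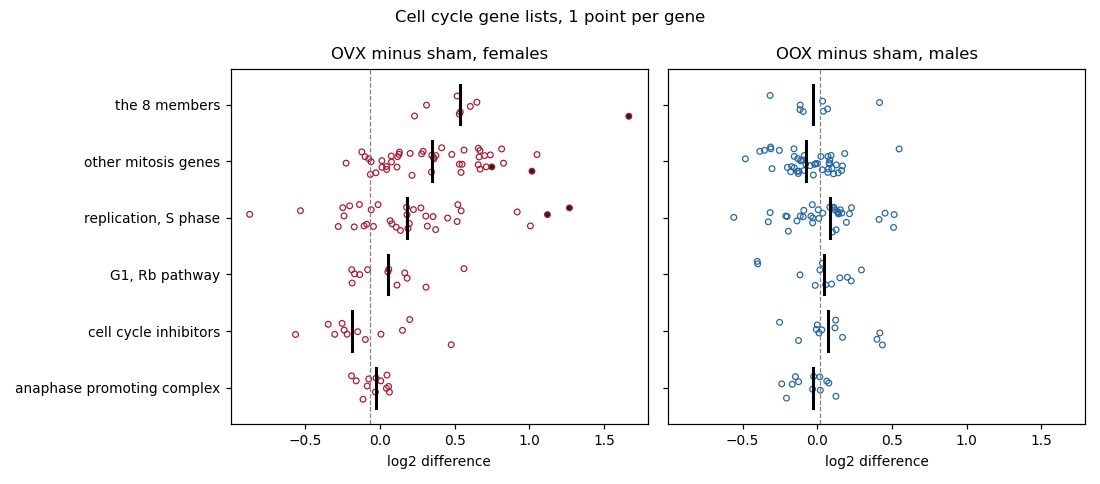
Fitted log2 differences of the genes of 6 lists, OVX minus sham in females (left) and OOX minus sham in males (right), with 1 point per measured gene and random vertical spacing. Black bars are medians, filled points passed the adjusted test, and the dashed line is the median of all named genes. In females the medians are 0.53 for the 8 members, 0.35 for the other mitosis genes and 0.18 for replication genes.

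No marker of another cell type passed the adjusted test in females, apart from Sycp3 of the meiosis list, against 6.22% of named genes. Summed over 6 measured lymphocyte markers, the signal was 0.832 to 1.14 times the array median in OVX and 0.482 to 0.509 in sham females, with no overlap. In males it was 0.833 to 1.52 in OOX and 0.592 to 0.973 in sham pools. Markers of red blood cell precursors, which divide in bone marrow, summed to 16.6 to 29.6 in OVX and 11.2 to 18.3 in sham females, and those of neuroblasts and subventricular progenitors to 80.9 to 113 in OVX and 95.7 to 109 in sham females. Spermatid markers, of which Odf1 and Akap4 were not well above background on any array, summed to 2.62 to 3.73 in OVX and 0.339 to 2.71 in sham females. They summed to 2.03 to 3.86 in OOX and 0.418 to 0.561 in sham males, where 5 of the 8 rose, against 0.0858% of named genes called. Fibroblast markers summed to 134 to 206 in OVX and 210 to 255 in sham females, with no overlap. The 5 fibroblast markers had a median difference of -0.61, with 0 above 0. Endothelial markers summed to 124 to 161 in OVX and 165 to 182 in sham females, also with no overlap. Such sums weigh bright genes most. Of the 5 endothelial markers 3 had a difference above 0, with a median of 0.04, while Plvap (-0.37) and Kdr (-0.21) were lower in OVX. Of the 8 neuroblast and subventricular progenitor markers 5 had a difference above 0, with a median of 0.13. Among them were Dlx1 (1.23, adjusted p = 0.115, limma), Dcx (0.78) and Nes (0.352). Dcx was well above background on 3 OVX and 0 sham female arrays. The bright Sox2 (-0.21) and Egfr (-0.34), and Sox11 (-0.23), were lower in OVX. The median difference was -0.90 over 8 neuron markers and -0.44 over 5 astrocyte markers, whose sums overlapped, as did those of red blood cell precursors, neuroblasts, spermatids and CP epithelium. CP epithelial markers summed to 1625 to 2536 in OVX and 2186 to 2560.4 in sham females. The part of these cells in the values of the mitotic genes was not tested.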

How the data were processed

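Each array was deposited as spot intensities from Agilent Feature Extraction, already background-subtracted by the authors. The authors also deposited median-centred log2 values made with BRB-ArrayTools, used here as an alternative. Control spots and outlier spots were left out, saturated spots kept and spots of a probe averaged. Values are log2 signal minus the array's median over 30367 rat probes. Probes were named by accession through RefSeq genes of GRCr8, which named 18004 probes (15154 genes) and left 12363 unnamed. The methods name 3 pools per group, and all 4 pools that the labels give for each male group were used.

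The tests were limma fits (3.58.1, R 4.3.3) within each sex without a covariate, and over all arrays for the sexes' difference, with Benjamini-Hochberg adjustment and a threshold of 0.05. The fits were tested on simulated data. The numbers of arrays limit the precision. Named were all 10 members, up to 4 genes of each other list by smallest p per sex (among those that a whole group measured above background) and the 3 genes most like Cenpf and most like the members' mean. Members and lists were chosen with earlier results of these data known. Python 3.11.15 with pandas 2.3.3 and numpy 2.4.6 handled tables.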

Additional observations from a re-analysis of the deposited data

Results flagged for a closer look

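No value of the 8 members met the test for an array far from its group, made in OOX and sham males for each gene (16 groups of 4 pools), and no difference between the sexes passed. Groups of 3 pools were not tested for such arrays.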

How the results depend on the processing

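In females the count of members called, 1 of 8, became 2 (Cenpf and Plk1) after scaling to the 75th percentile and in the value table. It became 0 after quantile normalization (Cenpf 1.21, adjusted p = 0.202), after normexp with an offset of 50 (0.19, 0.772), with a filter on dim probes (adjusted p = 0.0605), with all groups in 1 fit (0.0704), with slide as a block (0.708), with scan day as a block (0.357) and by the methods' t-test (0.156). With the replicate number as a block it was 0 (adjusted p = 0.119 for Cenpf); the numbers did not pair the pools, since pools of the same number correlated by only -0.03 to 0.20 in females and -0.39 to 0.21 in males. Leaving out single arrays gave 0 to 0 in females. At the methods' thresholds, an unadjusted p under 0.05 with a fold above 1.5, their t-test counted 1 member (Cenpf) in females and 0 in males. In males and in the difference between the sexes the count was 0 under every alternative run, single arrays left out included (0 to 0). Over all named genes 942 passed in females, against 1030 after 75th percentile scaling (383 higher), 953 in the value table (345 higher), 64 after quantile normalization, 112 after normexp, 188 with the filter, 14 with scan day as a block, 229 with all groups in 1 fit, 3 by the methods' t-test and 0 with slide or replicate number as a block; leaving out single arrays gave 2 to 950. Of these calls 275 were higher and 667 lower in OVX, against 37 higher and 27 lower after quantile normalization. In males 13 passed, against 0 after normexp, with all groups in 1 fit and by the methods' t-test, 8 with the replicate block and 22 with array weights (6 to 12 without single arrays). For the difference between the sexes 38 passed, against 83 after 75th percentile scaling, 69 in the value table, 64 after quantile normalization, 59 with the filter, 130 with array weights, 15 with the replicate block, 10 with slide as a block and 19 to 49 without single arrays.

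None of the values that changed sign had passed a test. With slide as a block Aurkb was -0.041 and Cdk1 -0.019 in females, and Aurkb -0.28 and Plk1 -0.030 in males. With a gene's probes averaged Bub1 was -0.048 in females and -0.14 in males, and Ccna2 -0.0078 in males. Ccna2 was -0.038 in males after normexp, and with array weights Ccnb1 was 0.27 and Plk1 -0.056 in males. The male minus female effect of Aurkb was 0.097 with array weights, 0.33 with scan day as a block and 0.023 with slide as a block. Leaving out single arrays gave ranges across 0 for that effect (-0.55 to 0.18) and for the male differences of Birc5 (-0.24 to 0.045), Bub1 (-0.15 to 0.20), Ccna2 (-0.15 to 0.22), Ccnb1 (-0.44 to 0.18), Cdk1 (-0.37 to 0.22) and Plk1 (-0.094 to 0.21). The causes were not tested, other than that the offset of normexp lies above dim signals such as that of Cenpf by construction. Scan day could not be used as a block within males, who were all scanned on 1 day, and Cenpf was not kept by the filter on dim probes in males. Fits of each probe on its own, and the alternatives for the other gene lists, were added after the data had been seen.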
